A study of Drosophila melanogaster with 8 samples.

Results

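The 2 wing disc RNA-seq libraries that carry number 4, CRISPR 4 and wt 4, were set against the 6 libraries numbered 1 to 3 (CRISPR 1 to CRISPR 3 and wt 1 to wt 3), of 8 libraries in all. They were taken by the number in their labels, with genotype as a covariate, and number 4 was proposed for study after earlier results of these data had been seen. CRISPR libraries came from 1151>AntpCRISPR larvae of Drosophila melanogaster, in which the 1151 driver directs CRISPR against the Hox gene Antp in adult muscle precursors (AMPs), the cells on the disc that later form flight muscle. The wt libraries came from the cross 1151 x w1118, whose label names no CRISPR transgene. All larvae were kept at 29 °C to the wandering stage, about 5 days after egg lay, and RNA was taken from whole wing discs. The submitters marked both number 4 libraries, CRISPR 3 and wt 1 as not used in their analysis, and no reason is given. The labels do not say what the number stands for, how many discs were pooled, or whether libraries came from separate larvae. P-values therefore speak only of variation from library to library, part or all of which could be technical.

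The wing disc is a sac of epithelium that grows through larval life and turns into the adult wing and thorax at metamorphosis. The timing is set by the steroid ecdysone, which binds the receptor EcR and switches on transcription factors in sequence: Eip74EF and Eip75B early, Hr3, Hr4 and Eip78C next, ftz-f1 in the prepupa. The Imp genes were first found as messages that ecdysone induces in discs. Tanning enzymes, which harden and colour cuticle, are among the later targets of the hormone.

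Depth ranged from 35076546 gene reads (CRISPR 1) to 47980221 (wt 2), with 42497067 in CRISPR 4 and 43309868 in wt 4. Levels are CPM, read counts scaled to a common library size by TMM, a factor that evens out library composition. Of 17559 gene IDs, 10639 had enough reads to test. The labelled tissue was seen in its markers. The 8 wing epithelium markers summed to 1584 CPM in CRISPR 4 and 1633 CPM in wt 4, against 1680 to 1809 CPM in numbers 1 to 3. The 8 AMP markers summed to 291 and 299 CPM in CRISPR 4 and wt 4, against 283 to 377 CPM in numbers 1 to 3. The targeted gene, Antp, had 149 CPM in CRISPR 4 and 121 CPM in wt 4, against 145 to 213 CPM in CRISPR 1 to 3 and 135 to 196 CPM in wt 1 to 3. An edited gene can lose its function and keep its RNA level, so these values check no label. Midgut transcripts (13 markers) summed to 0.324 CPM in CRISPR 4 and 0.754 CPM in wt 4, against 0.83 to 2114 CPM in numbers 1 to 3, where CRISPR 3 (1182 CPM), wt 2 (2096 CPM) and wt 3 (2114 CPM) were high. The wt 2 and wt 3 libraries were nearly alike, with a robust SD of their log2 ratio of 0.0592, where the other pairs within a genotype had 0.216 to 0.470. Their chi-square per degree of freedom of 10.6 is still above counting noise.

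Long transcripts were lower in both number 4 libraries, and short ones higher. In the longest decile of genes (longest annotated transcript of 5246 to 71382 bases), the median gene lay 0.59 log2 units below the other CRISPR libraries in CRISPR 4 and 0.52 below the other wt libraries in wt 4. In the shortest decile (46 to 701 bases) it lay 0.35 above in CRISPR 4 and 0.31 above in wt 4. The 6 other libraries leaned the other way, with medians of 0.08 to 0.33 in the longest decile; the set each is compared with holds a number 4 library, so part of that lean is built in. Across 10428 genes, Spearman's rho between a gene's deviation and its length was -0.38 in CRISPR 4 and -0.35 in wt 4, and lay between 0.065 (CRISPR 3) and 0.29 (CRISPR 1) in the rest. For the fitted difference of number 4 minus numbers 1 to 3 it was -0.37, and -0.65 among the 4391 genes with an average log2 CPM of at least 5. Genes are not independent replicates and the 2 number 4 values share the libraries' processing, so these are descriptions with no p. The labels give no RNA integrity or fragment size for any library.

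**Figure D1:**
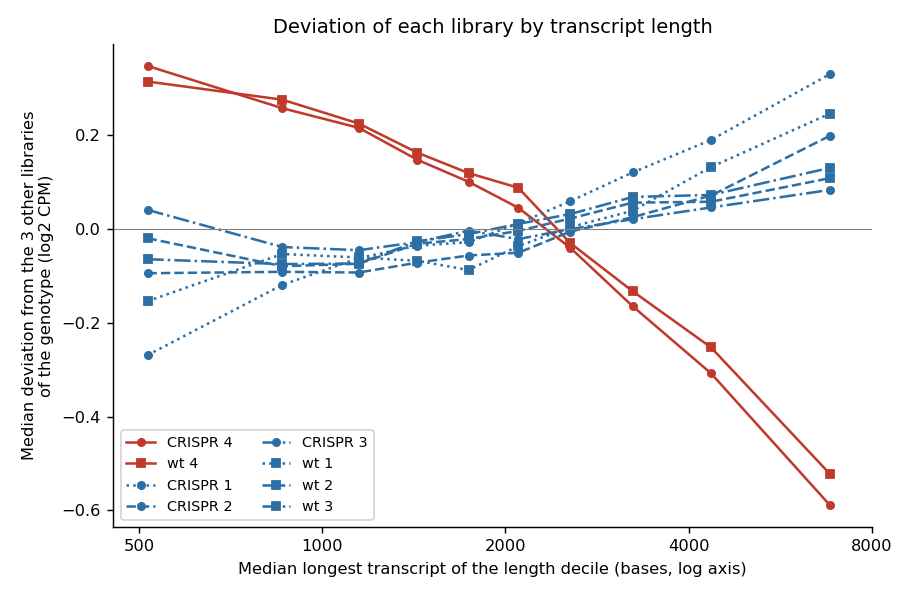
Median deviation of each library from the 3 other libraries of its genotype (vertical axis, log2 CPM) over 10 equal groups of genes by longest transcript (horizontal axis, bases, log scale); red lines are CRISPR 4 (circles) and wt 4 (squares), blue lines are numbers 1 to 3. Both red lines run down from 0.35 and 0.31 to -0.59 and -0.52, and cross the blue ones near the middle of the length range.

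In the edgeR fit of number 4 against numbers 1 to 3, 1836 of 10639 genes passed an adjusted p of 0.05 (17.3%), of which 740 were higher in number 4 (6.96%) and 1096 lower (10.3%). Most of these differences were small: 75 of the higher and 273 of the lower genes reached 2-fold. The median length was 1242 bases among the higher genes and 4659 among the lower, against 1905 for all genes. Lower calls took 42.1% of the longest decile but 0.671% of the shortest. To take the length trend into account, each library was also given an offset, a smooth of its deviation on log2 length, and the fit was repeated. With length offsets 708 genes passed (6.65%), 433 higher (4.07%) and 275 lower (2.58%). The correlation of the difference with length shrank to -0.086, but the calls still went with length. Their median length was 2610 bases among the higher and 3496 among the lower genes. In the longest decile 7.29% were higher and 5.56% lower, against 2.30% and 0.192% in the shortest. The offset is a single smooth over genes of all levels, while the trend was steeper among abundant genes. A remaining part of length in calls made in both fits was not tested. In both fits and in the same direction, 286 genes were higher (2.69%) and 275 lower (2.58%), while 454 higher and 821 lower calls were made only without the offsets. Higher genes thus made up 40.3% of calls without and 61.2% with offsets, and 60.3% with upper-quartile scaling in place of TMM, so the split between higher and lower rests on the scaling. In what follows a gene is said to have risen or fallen in both fits, or in the TMM fit only.

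Among all genes tested, each number 4 library lay above its 3 others in 2579 (24.2%) and below in 2397 (22.5%). The deviations of wt 4 and CRISPR 4 correlated with r = 0.58 across genes (0.56 after length offsets), against -0.038, -0.32 and -0.24 for wt 4 with CRISPR 1, CRISPR 2 and CRISPR 3. Per genotype, number 4 is 1 library, so tests within a genotype and of the difference between genotypes take their spread from numbers 1 to 3 and assume that wt 4 and CRISPR 4 vary likewise. They are too weak to show that the genotypes act alike. The test of a number 4 difference that depends on genotype called 0 genes with edgeR (77 at an unadjusted p under 0.05), 0 with limma-voom and 2 with DESeq2. Taken alone, wt 4 differed from wt 1 to 3 in 2 genes (0.0188%; 1963 unadjusted) and CRISPR 4 from CRISPR 1 to 3 in 0 (1840 unadjusted), where DESeq2 called 887 and 1011 and limma-voom 14 and 118. Far fewer genes were called with a single number 4 library: 2 without CRISPR 4 and 164 without wt 4. They also lean on wt 2 and wt 3: with these near-identical libraries summed and counted as 1 there were 1064 calls (292 higher, 772 lower), and 1065 without wt 2 or 1039 without wt 3. Without wt 1, the count was 2740.

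**Figure D2:**
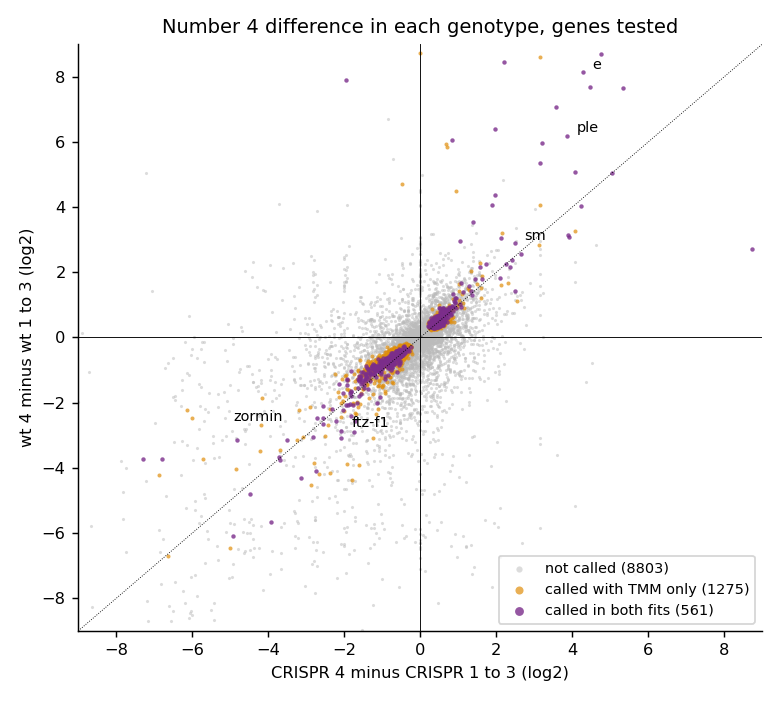
Fitted log2 difference of CRISPR 4 minus CRISPR 1 to 3 (horizontal axis) and of wt 4 minus wt 1 to 3 (vertical axis) for each gene tested; grey points were not called, orange ones were called with TMM only (1275) and purple ones in both fits (561). The dotted line marks equal differences, 32 genes lie beyond the axes at 9 log2 units, and called genes lie along the line, with e and ple higher in wt 4 than in CRISPR 4.

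Single genes of the ecdysone response differed in number 4. The 4 stage lists together were called about as often in the TMM fit as all genes, which are not matched to them for length. With length offsets they were called more often, as given below. The ecdysone receptor and transcription factor list had 1 of 18 tested members higher and 3 lower in the TMM fit, and 1 higher and 0 lower with length offsets, against 6.96% higher and 10.3% lower of all genes with TMM and 4.07% and 2.58% with offsets. Its median difference was -0.18 without and 0.39 with offsets, where all genes had 0.00 and 0.06. The list has a median transcript of 6223 bases. In the longest decile of all genes 0.767% were higher and 42.1% lower with TMM, and 7.29% and 5.56% with offsets. The median differences of that decile were -0.60 and -0.06, both below those of the list. Hr39, an orphan nuclear receptor induced by ecdysone (2L 21237250 to 21259675, dm6), had 245 CPM in CRISPR 4 and 256 CPM in wt 4. Its levels were 145, 152 and 194 CPM in CRISPR 1, 2 and 3 and 130, 148 and 143 CPM in wt 1, 2 and 3. Hr39 was higher in both number 4 libraries than in any other library, and rose in both fits (log2 difference 0.73, SE 0.12, adjusted p = 0.0111; with offsets 1.07, SE 0.15, adjusted p = 0.0161). The prepupal competence factor ftz-f1 (3L 18750607 to 18801309) had 11.7 CPM in CRISPR 4 and 9.83 CPM in wt 4, against 53.3, 73.0 and 16.1 CPM in CRISPR 1 to 3 and 55.4, 43.7 and 42.1 CPM in wt 1 to 3. Both number 4 libraries were the lowest, with CRISPR 3 next, and ftz-f1 fell in the TMM fit only (-2.14, SE 0.51, adjusted p = 0.0273; with offsets -1.67, adjusted p = 0.0716; TMM without wt 2 0.0512 and without wt 3 0.0510). The early gene Eip74EF averaged 101 ± 1.43 CPM in number 4 and 164 ± 21.1 CPM in numbers 1 to 3 (SD, n = 2 and 6). It and rig, a cofactor of nuclear receptors, fell in the TMM fit only (-0.70, adjusted p = 0.0181, and -0.49, adjusted p = 0.0348), with offset values of -0.23 and -0.22 (adjusted p = 0.241 and 0.224). EcR itself had 169 and 174 CPM in CRISPR 4 and wt 4, against 330, 316 and 164 CPM in CRISPR 1 to 3 and 313, 222 and 209 CPM in wt 1 to 3, and did not pass (adjusted p = 0.167).

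Several genes that respond to ecdysone before pupariation were at high levels in number 4 without passing the test, with CRISPR 3 as high or next to it. Hr3 had 12.8 CPM in CRISPR 4 and 16.7 CPM in wt 4, against 0.158, 0.0254 and 8.23 CPM in CRISPR 1 to 3 and 0.126, 0.774 and 0.846 CPM in wt 1 to 3. Its difference had a large error (log2 3.76, SE 1.44, adjusted p = 0.107). Hr4 had 142 and 133 CPM in CRISPR 4 and wt 4, against 12.5, 12.4 and 174 CPM in CRISPR 1 to 3 and 2.54, 38.8 and 38.7 CPM in wt 1 to 3 (adjusted p = 0.283). ImpE2, a secreted apical protein of discs, had 4646 and 4071 CPM in CRISPR 4 and wt 4, against 751, 433 and 4316 CPM in CRISPR 1 to 3 and 327, 1323 and 1331 CPM in wt 1 to 3 (adjusted p = 0.165). Number 4 and CRISPR 3 thus stood together at the high end for these 3 genes, wt 2 and wt 3 lay between, and CRISPR 1, CRISPR 2 and wt 1 were low. Eip78C had 117 and 98.5 CPM in CRISPR 4 and wt 4, 107 CPM in CRISPR 3 and 9.27 to 37.2 CPM in the other 5 (adjusted p = 0.129). Blimp-1, an ecdysone-induced repressor of ftz-f1, had 181 and 148 CPM in CRISPR 4 and wt 4, 202 CPM in CRISPR 3 and 1.1 to 68 CPM in the other 5 (adjusted p = 0.418). ImpE3 had 156 and 180 CPM in CRISPR 4 and wt 4, 113 CPM in CRISPR 3 and 13 to 57.7 CPM in the other 5 (adjusted p = 0.0864). In each of these, CRISPR 3 lay beside number 4 and above the other 5. CRISPR 3 was picked out after these levels were seen, so leaving it out takes away the overlap by construction and is no independent support. The values without it were those of Hr3 (5.78, adjusted p = 0.0059), Hr4 (2.92, adjusted p = 0.0369), ImpE2 (2.51, adjusted p = 0.0158), ImpE3 (2.30, adjusted p = 0.0116) and Eip78C (1.97, adjusted p = 0.0209), with EcR at -0.71 (adjusted p = 0.0362) and Blimp-1 at 2.15 (adjusted p = 0.192).

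The ecdysone uptake and effector list had 2 of 12 members higher in the TMM fit, 1 of them with offsets, and none lower. Of all genes 6.96% were higher with TMM and 4.07% with offsets. ImpL1, another ecdysone-induced disc gene, averaged 4.92 ± 0.175 CPM in number 4 and 1.26 ± 0.547 CPM in numbers 1 to 3 (SD, n = 2 and 6). It rose in both fits (1.96, SE 0.43, adjusted p = 0.0202; with offsets 1.88, adjusted p = 0.0430). MsrA, the ecdysone-induced methionine sulfoxide reductase, had 74.8 and 68.3 CPM in CRISPR 4 and wt 4, against 44.8 to 56.9 CPM in the rest, and rose in the TMM fit only (0.46, adjusted p = 0.0253; with offsets 0.38, adjusted p = 0.0657). Over the 12 members the mean log2 CPM was 5.94 in CRISPR 4 and 5.85 in wt 4, with CRISPR 3 at 5.79, and wt 2 and wt 3 at 5.53 and 5.55. CRISPR 1, CRISPR 2 and wt 1 had 5.16, 4.98 and 4.7.

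Of 7 tested temporal identity genes 0 passed in the TMM fit and 1, higher, with offsets. The list has a median transcript of 5533 bases. In the longest decile of all genes 0.767% were higher and 42.1% lower with TMM, and 7.29% and 5.56% with offsets. The BTB factor chinmo, which marks early larval identity and is lost late in larval life, had 37.0 CPM in CRISPR 4 and 29.7 CPM in wt 4, against 112, 246 and 44.9 CPM in CRISPR 1 to 3 and 236, 107 and 107 CPM in wt 1 to 3. Both number 4 libraries were the lowest of their genotype, CRISPR 3 was close to them, and the difference did not pass (-2.09, SE 0.65, adjusted p = 0.0592). Without CRISPR 3, also left out with its level known, it was -2.31 (adjusted p = 0.0133). The let-7 precursor lncRNA:let7C, an ecdysone-induced transcript, had 2.45 and 2.0 CPM in CRISPR 4 and wt 4, 1.38 CPM in CRISPR 3, and 0 to 0.575 CPM in the other 5 (adjusted p = 0.141). Syp, an RNA-binding protein of late neuroblast identity, averaged 3157 ± 223 CPM in number 4 and 2467 ± 311 CPM in numbers 1 to 3 (SD, n = 2 and 6). It passed with offsets alone (0.97, SE 0.18, adjusted p = 0.0273; TMM 0.36, adjusted p = 0.170).

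In the list of disc eversion and prepupal cuticle genes, 4 of 17 members were lower and 0 higher in the TMM fit (10.3% and 6.96% of all genes), and 3 lower and 1 higher with offsets. Its median difference was above 0, at 0.15 and 0.24, and each number 4 library lay above its 3 others for 5 members and below for 5. The 4 lower members make or alter chitin or resemble enzymes that do, and were grouped so after their values were seen. The chitin synthase kkv (3R 5378093 to 5392866) had 163 CPM in CRISPR 4 and 163 CPM in wt 4, against 348, 333 and 308 CPM in CRISPR 1 to 3 and 314, 290 and 306 CPM in wt 1 to 3. The 2 number 4 values stood well below the other 6, which lay close together, and kkv fell in both fits (-0.96, SE 0.09, adjusted p = 0.00518; with offsets -0.55, SE 0.08, adjusted p = 0.0173). The chitinase Cht7 averaged 36.3 ± 6.0 CPM in number 4 and 128 ± 43.4 CPM in numbers 1 to 3, and the chitinase-like growth factor Idgf6 13.8 ± 0.798 CPM in number 4 and 56.0 ± 21.1 CPM in numbers 1 to 3 (SD, n = 2 and 6). Both fell in both fits (Cht7 -1.82, adjusted p = 0.0188, and -1.57 with offsets, adjusted p = 0.0431; Idgf6 -2.01, adjusted p = 0.0249, and -2.03, adjusted p = 0.0444). For each, CRISPR 3 was the lowest of the other 6 (66.8 CPM for Cht7 and 20.4 CPM for Idgf6). The chitin deacetylase serp fell in the TMM fit only (-0.57, adjusted p = 0.0469; with offsets -0.51, adjusted p = 0.0836). The matrix metalloproteinases, which remodel the disc at eversion, had positive differences. Mmp1 passed with offsets (0.62, adjusted p = 0.0482; TMM 0.39, adjusted p = 0.0836). Mmp2 had 59.1 and 58.9 CPM in CRISPR 4 and wt 4, against 19.6 to 52.3 CPM in the rest, and did not pass (0.92, adjusted p = 0.0702). Exons of Mmp1 overlap those of Pof, so its count is uncertain.

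Taken over the 4 stage lists, 54 different genes were tested. Each number 4 library lay above its 3 others in 15 of them (27.8%) and below in 15 (27.8%), shares near the 24.2% and 22.5% of all genes. In 23 of these 30 genes (76.7%) CRISPR 3 was the nearest of the 6 other libraries to the number 4 mean, against 1958 of 4976 genes (39.3%) over all genes with such a layout. By this layout the stage genes did not stand out from all genes. In the TMM fit 3 of the 54 were called higher and 7 lower, near the 6.96% and 10.3% of all genes. With length offsets 4 were higher and 3 lower, larger shares than the 4.07% and 2.58% of all genes, but resting on few genes. The ecdysone factor and temporal lists have median transcripts within the longest decile, so shares of all genes are not matched to their length. Hr3, Hr4 and ImpE2 were high and chinmo low in number 4 and in CRISPR 3, and none of these passed, while Hr39 and ImpL1 rose and Eip74EF, ftz-f1, kkv, Cht7 and Idgf6 fell in the TMM fit. The labels give all libraries the same age. Larval stage and the number cannot be told apart in these libraries.

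**Figure D3:**
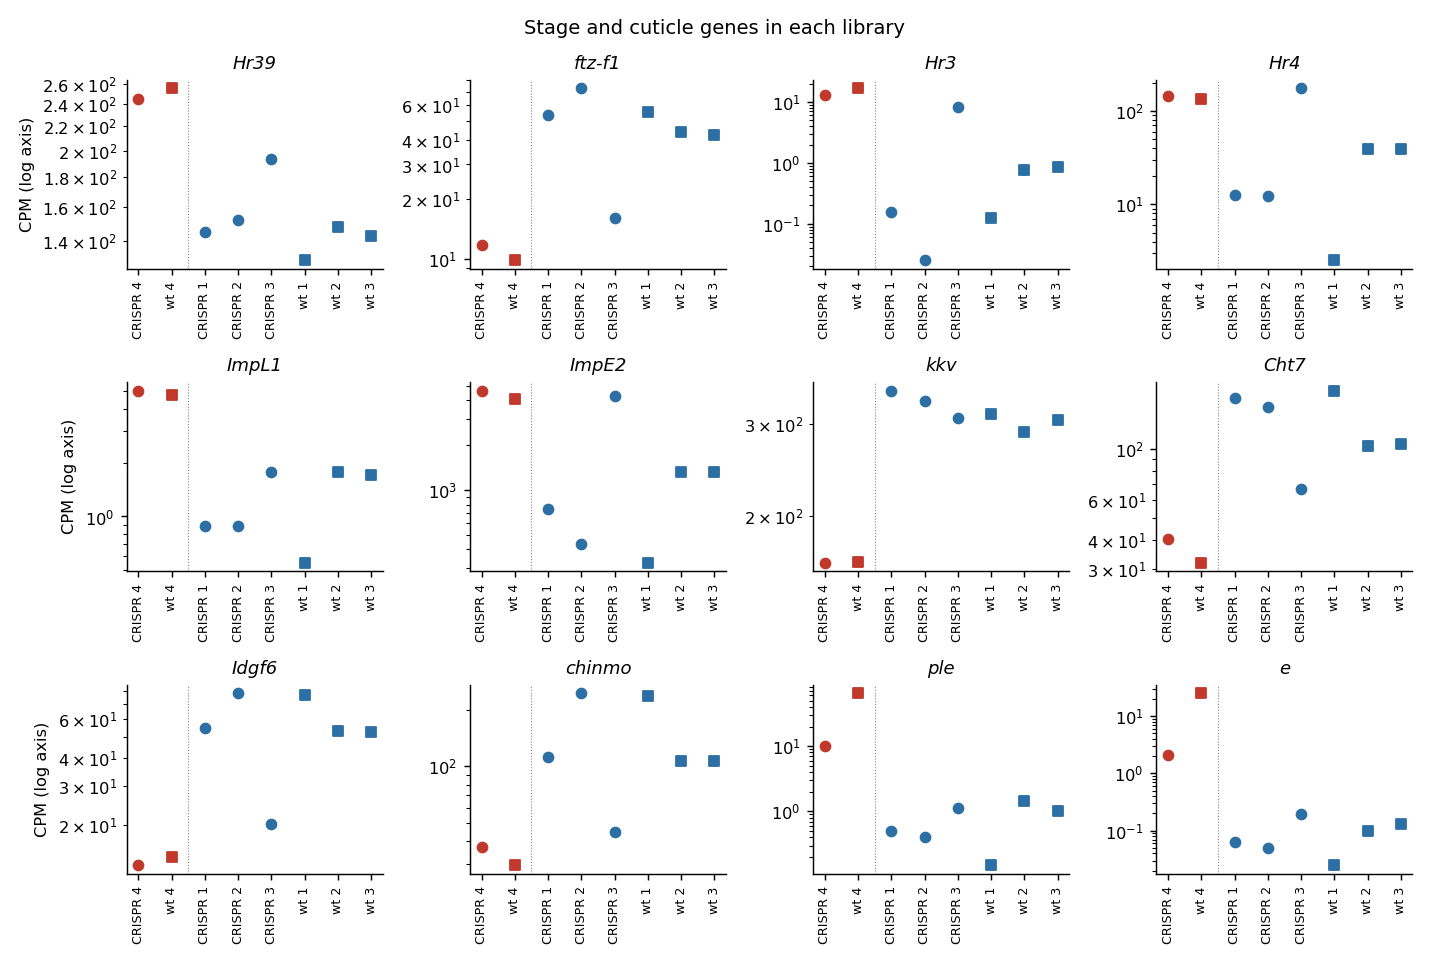
Levels (CPM, log axes that differ by panel) of 12 stage and cuticle genes in each library, with CRISPR 4 and wt 4 in red left of the dotted line and numbers 1 to 3 in blue (circles CRISPR, squares wt). Number 4 lies apart from all 6 others in every panel but those of Hr4 and ImpE2, where CRISPR 3 lies among or above the red points. The CRISPR 3 point lies nearest to the red ones for Hr3, Hr4, ImpE2, ftz-f1, Cht7, Idgf6, chinmo, Hr39 and e.

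Among genes with an average log2 CPM of at least 1, the largest rises in both fits that have a symbol were those of e and ple, enzymes of cuticle tanning. Both reached that average through number 4, with means of 13.6 CPM (e) and 37.4 CPM (ple) in number 4. In numbers 1 to 3 the means were 0.0937 CPM (e) and 0.775 CPM (ple). CG7924, ImpL1, b and Tsp42Ei also passed that floor only through number 4, with means of 1.01, 1.26, 1.52 and 1.54 CPM in numbers 1 to 3. The place of all these genes in the ranking is therefore a description. The gene e (ebony), whose enzyme joins beta-alanine to dopamine in the tanning of cuticle, had 2.13 CPM in CRISPR 4 and 25.1 CPM in wt 4, against 0.0631, 0.0508 and 0.194 CPM in CRISPR 1 to 3 and 0.0251, 0.0992 and 0.130 CPM in wt 1 to 3. It was near the limit of detection in all 6, where it rests on 1 to 9 reads, and rose in both fits (6.66, SE 0.81, adjusted p = 0.0068; with offsets 6.79, adjusted p = 0.0150). The tyrosine hydroxylase ple, which starts the same pathway, had 10.1 and 64.7 CPM in CRISPR 4 and wt 4, against 0.504, 0.406 and 1.12 CPM in CRISPR 1 to 3 and 0.151, 1.47 and 0.997 CPM in wt 1 to 3. It rose in both fits (5.25, SE 0.70, adjusted p = 0.00736; with offsets 5.47, adjusted p = 0.0156). Both genes were highest in wt 4, and CRISPR 4 still stood above all 6 others. The b (black) enzyme, which makes beta-alanine, had 3.10 and 4.99 CPM in CRISPR 4 and wt 4, against 1.05 to 2.0 CPM in numbers 1 to 3 (1.39, SE 0.31, adjusted p = 0.0231; with offsets 1.4, adjusted p = 0.0431). The dopa decarboxylase Ddc had 4.18 and 5.97 CPM in CRISPR 4 and wt 4, against 0.552 to 3.31 CPM in numbers 1 to 3 and did not pass (1.79, adjusted p = 0.0610). Of 10 tested members of a tanning list put together after these values were seen, 3 rose in both fits and none fell. Of all genes 2.69% rose and 2.58% fell in both fits. The list was made with its risen genes known, so the count is no independent support. Without CRISPR 4, e was still called (8.13, adjusted p = 0.0424) and ple was not (6.19, adjusted p = 0.149); without wt 4 neither was, with e at 4.31 (adjusted p = 0.0660) and ple at 3.89 (adjusted p = 0.0990).

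Other genes with the largest rises were sm, an RNA-binding protein of the hnRNP L family, with 53.8 and 54.5 CPM in CRISPR 4 and wt 4, against 4.41, 2.77 and 21.7 CPM in CRISPR 1 to 3 and 2.26, 10.3 and 9.50 CPM in wt 1 to 3. Despite a transcript of 15344 bases sm rose in both fits (2.69, SE 0.70, adjusted p = 0.0364; with offsets 3.5, adjusted p = 0.0387), but missed the threshold without CRISPR 1, wt 2 or wt 3 (2.55, 2.84 and 2.79, adjusted p = 0.0619, 0.0630 and 0.0682). The glycogen-targeting subunit Gbs-70E averaged 33.9 ± 2.03 CPM in number 4 and 13.5 ± 4.34 CPM in numbers 1 to 3, and the cuticle protein Cpr78E 10.2 ± 1.35 CPM in number 4 and 3.29 ± 1.2 CPM in numbers 1 to 3 (SD, n = 2 and 6). The tetraspanin Tsp42Ei averaged 4.13 ± 0.376 CPM in number 4 and 1.54 ± 0.553 CPM in numbers 1 to 3, and CG4914 206 ± 23 CPM in number 4 and 80.1 ± 30.3 CPM in numbers 1 to 3 (SD, n = 2 and 6). CG7924 had 4.6 and 17.7 CPM in CRISPR 4 and wt 4 against 0.527 to 1.85 CPM in the rest, and lncRNA:CR43264 28.2 and 22.7 CPM in CRISPR 4 and wt 4, against 3.66 to 16.5 CPM in numbers 1 to 3. All 6 rose in both fits by 1.33 to 3.40 on the TMM log2 scale, from Gbs-70E to CG7924.

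The largest falls in both fits included zormin, a titin-like protein of muscle Z-bands, with 23.2 CPM in CRISPR 4 and 28.2 CPM in wt 4, against 209, 190 and 63.6 CPM in CRISPR 1 to 3 and 211, 127 and 129 CPM in wt 1 to 3. It fell in both fits (-2.60, SE 0.48, adjusted p = 0.0134; with offsets -1.84, adjusted p = 0.0431). Its transcript has 11516 bases, and CRISPR 3 again lay between number 4 and the rest. CG6026 had 0.809 and 0.643 CPM in CRISPR 4 and wt 4, against 2.02 to 8.64 CPM in numbers 1 to 3, CG6142 1.06 and 0.577 CPM in CRISPR 4 and wt 4, against 1.83 to 7.64 CPM in numbers 1 to 3, and CG1246 0.393 and 0.821 CPM in CRISPR 4 and wt 4, against 1.55 to 6.11 CPM in numbers 1 to 3. CG14961, CG14212, CG9121, CG5618 and lncRNA:CR44564 fell in both fits as well, with TMM log2 differences of -1.74 (CG5618) to -2.14 (CG14961). CG6026, CG6142, CG1246, CG14961, CG14212, CG9121 and lncRNA:CR44564 passed the floor of an average log2 CPM of 1 only through numbers 1 to 3. Their means in number 4 lay between 0.607 CPM (CG1246) and 1.41 CPM (CG14961). The place of these genes in the ranking is therefore a description. Exons of CG1246, CG14961, CG14212, CG9121 and CG5618 overlap other genes, so their counts are uncertain without the strand setting. A further 3 IDs among the largest changes match no symbol here and are not described.

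Proteins of the matrix and of adhesion, many of them very long, were lower in number 4, and most of that went with length. In the matrix and adhesion list 14 of 24 members were lower in the TMM fit (42.1% of the longest decile of all genes). With offsets 3 were lower and 1 higher (5.56% and 7.29% of that decile). The list had a median difference of -0.60 without and -0.10 with offsets and a median transcript of 8481 bases. Of 23 cytoskeletal and other very large proteins, 17 were lower without and 1 with offsets. The type IV collagen chains, which basement membranes are built from, fell in both fits. Col4a1 had 40.6 CPM in CRISPR 4 and 49.8 CPM in wt 4, against 101, 134 and 82.2 CPM in CRISPR 1 to 3 and 187, 127 and 134 CPM in wt 1 to 3. It fell in both fits (-1.48, SE 0.22, adjusted p = 0.00896; with offsets -1.02, adjusted p = 0.0333). Its partner vkg averaged 28.8 ± 5.90 CPM in number 4 and 82.6 ± 24.9 CPM in numbers 1 to 3 (SD, n = 2 and 6; -1.51, adjusted p = 0.0106; with offsets -1.03, adjusted p = 0.0419). Number 4 did not overlap the rest for either collagen gene. In larvae the fat body is the main source of this collagen, and blood cells make it too. The 7 fat body markers summed to 21.2 and 33.2 CPM in CRISPR 4 and wt 4, against 28.9 to 527 CPM in numbers 1 to 3. The 7 hemocyte markers summed to 18.8 and 24.4 CPM in CRISPR 4 and wt 4, against 21.2 to 64.4 CPM in numbers 1 to 3. Each range overlaps wt 4. The part of either tissue in the collagen difference was not tested. Fewer cells of a type and less RNA per cell cannot be told apart in whole discs. The cell adhesion protein Dscam1 (-1.33 and -0.69 with offsets, adjusted p = 0.00518 and 0.0229) and the Z-disc and adhesion protein Zasp52 (-1.03 and -0.48, adjusted p = 0.00715 and 0.0410) also fell in both fits. The laminin chain LanA (414 and 492 CPM in CRISPR 4 and wt 4, against 814 to 1171 CPM in numbers 1 to 3) and the giant apical matrix protein dpy (150 and 196 CPM in CRISPR 4 and wt 4, against 389 to 671 CPM in numbers 1 to 3) fell in the TMM fit only, with offset values of -0.37 and -0.32 (adjusted p = 0.152 and 0.196).

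Of the genes of the disc's own cell types, fewer were lower with length offsets. Of 28 wing epithelium genes 9 were lower and 0 higher in the TMM fit, and 0 lower and 2 higher with offsets. Of all genes 10.3% were lower and 6.96% higher with TMM, and 2.58% and 4.07% with offsets. The wing epithelium, AMP and Hox lists have median transcripts of 4637, 4348 and 4732 bases. At 3725 to 5245 bases 26.1% of all genes were lower with TMM. For the sarcomere list (2941 bases) the like share was 15.1%. The 9 lower wing epithelium genes of 28 are a somewhat larger share than that of their length, and the other lists are near or below theirs. These counts are no result about the cell types. The Hedgehog receptor ptc had 92.6 and 124 CPM in CRISPR 4 and wt 4 against 173 to 221 CPM in the rest (-0.81, adjusted p = 0.0111; with offsets -0.39, adjusted p = 0.0768). The Dpp target salm had 142 and 179 CPM in CRISPR 4 and wt 4, against 235 to 252 CPM in numbers 1 to 3 (-0.60, adjusted p = 0.0104; with offsets -0.15, adjusted p = 0.343). The wing selector partner sd, with 608 and 633 CPM in CRISPR 4 and wt 4, against 562 to 651 CPM in numbers 1 to 3, passed with offsets alone (0.51, adjusted p = 0.0270; TMM 0.06, adjusted p = 0.674). Its levels overlapped, so that call comes from the length term. Of 16 AMP genes 4 were lower without offsets and 1 higher with them. The myoblast factor twi (-0.35, adjusted p = 0.0467), the actin regulator Vrp1 (-0.50, adjusted p = 0.0158) and the Slit receptor robo2 (-1.11, adjusted p = 0.0273) fell in the TMM fit only. The muscle founder adhesion protein kirre passed with offsets only (1.02, adjusted p = 0.0298; TMM 0.58, adjusted p = 0.0523). Sarcomere genes had 4 of 24 lower without and 1 with offsets, with a median difference of -1.07 without and -0.57 with offsets. Among the Hox genes and cofactors, tio fell in the TMM fit only (-0.80, adjusted p = 0.00697; with offsets -0.38, adjusted p = 0.0707), 1 of 9.

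Of the lists of short genes, mitochondrial ribosomal and respiratory chain genes had medians like those of other genes of their length. Proteasome genes had higher medians than all genes of their length. Small nucleolar RNAs had higher ones than the shortest decile, whose genes are mostly longer than they are. In the 4 shortest deciles of all genes, 9.69% to 13.9% were called higher in the TMM fit, with medians of 0.13 to 0.29. In the TMM fit 13 of 70 mitochondrial ribosomal proteins, 11 of 65 nuclear-encoded respiratory chain genes and 5 of 35 proteasome genes were higher and none lower, with median differences of 0.25, 0.25 and 0.28. With offsets 1, 1 and 0 passed and the medians were 0.16, 0.17 and 0.22. Their median transcripts have 779, 819 and 1393 bases. All genes of 701 to 1002 bases had medians of 0.25 without and 0.16 with offsets, and those of 1286 to 1584 bases 0.13 and 0.07. In the TMM fit 13.9% and 9.69% of these 2 deciles were higher, smaller shares than in the lists of like length. The deciles hold genes of all levels, while the length trend was steeper among abundant genes, so they match the lists in length only. The mitochondrial ribosomal gene mRpL43 rose in both fits (0.54, SE 0.09, adjusted p = 0.0117; with offsets 0.44, adjusted p = 0.0431). The proteasome subunit Prosbeta1, with 211 and 204 CPM in CRISPR 4 and wt 4, against 136 to 168 CPM in numbers 1 to 3, rose in the TMM fit only (0.44, adjusted p = 0.0212; with offsets 0.34, adjusted p = 0.10). Among small nucleolar RNAs and the Uhg genes that host them, 7 of 159 were higher without and 1 with offsets, no larger a share than the 6.96% and 4.07% of all genes. The median difference of that list was 0.72 without and 0.19 with offsets, against 0.29 and 0.14 in the shortest decile. The list's median transcript has 137 bases and that of the decile 516, so the decile is no match in length. With offsets fitted on abundant genes the list median was 0.62. Of 159 genes annotated as small nucleolar RNAs themselves, 2 were higher without and 0 with offsets. Uhg1 had 97.4 and 91.6 CPM in CRISPR 4 and wt 4 against 41.4 to 65.5 CPM in the rest and rose in both fits (0.79, adjusted p = 0.0131; with offsets 0.71, adjusted p = 0.0270). Ribosomal proteins of the cytoplasm had 2 of 78 higher and 1 lower, and the lower one, RpL22, fell in both fits (625 and 610 CPM in CRISPR 4 and wt 4, against 783 to 924 CPM in numbers 1 to 3; -0.44, adjusted p = 0.0324, and -0.52 with offsets, adjusted p = 0.0432).

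**Figure D4:**
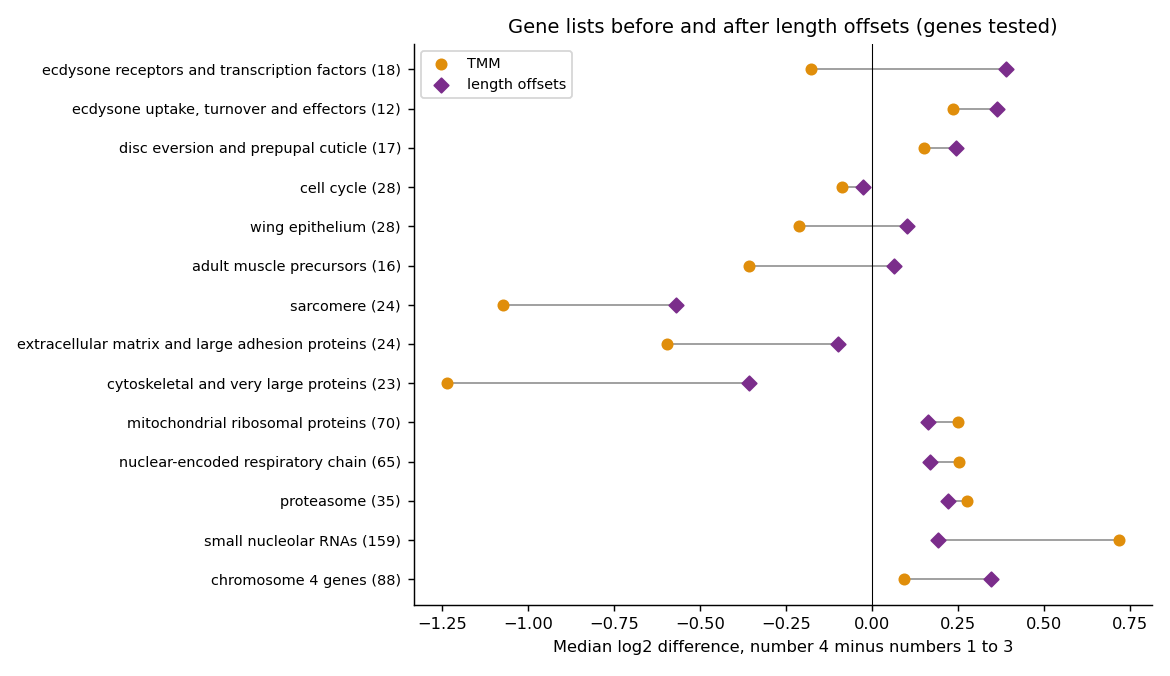
Median log2 difference of number 4 minus numbers 1 to 3 for 14 gene lists (number of genes tested in brackets), with TMM (orange circles) and with length offsets (purple diamonds). The offsets bring the large-protein lists from -0.60 and -1.24 to -0.10 and -0.36, turn the median of the ecdysone factor, wing epithelium and AMP lists above 0, and raise chromosome 4 genes from 0.09 to 0.35.

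Cell cycle genes were mixed, with 2 of 28 higher and 4 lower in the TMM fit (6.96% and 10.3% of all genes). With offsets 1 passed each way (4.07% and 2.58% of all genes). The mitotic activator stg (Cdc25) had 203 CPM in CRISPR 4 and 181 CPM in wt 4, against 435, 374 and 287 CPM in CRISPR 1 to 3 and 355, 279 and 278 CPM in wt 1 to 3, with no overlap. It fell in both fits (-0.80, SE 0.17, adjusted p = 0.0204; with offsets -0.70, adjusted p = 0.0419). Cdk2, the S-phase kinase, rose in both (0.45, adjusted p = 0.0288; with offsets 0.48, adjusted p = 0.0439), with 70.8 and 72.1 CPM in CRISPR 4 and wt 4, against 47.1 to 60.4 CPM in numbers 1 to 3. The S-phase factor E2f1 had 246 CPM in each number 4 library against 338 to 350 CPM in numbers 1 to 3 and fell in the TMM fit only (-0.49, adjusted p = 0.0103; with offsets -0.14, adjusted p = 0.255). In the ribosome biogenesis list 1 of 19 changed, the GTP-binding assembly factor Non1. It averaged 386 ± 22.4 CPM in number 4 and 685 ± 90.5 CPM in numbers 1 to 3 (SD, n = 2 and 6; -0.83, adjusted p = 0.0154; with offsets -0.79, adjusted p = 0.0332). No member of the growth arrest and damage list passed in the TMM fit; with offsets 2 of 13 were higher, Mmp1 and the pro-apoptotic gene hid (0.78, adjusted p = 0.0466; 200 and 180 CPM in CRISPR 4 and wt 4, against 105 to 184 CPM in numbers 1 to 3, which overlap).

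Genes of chromosome 4, the small dot chromosome that is largely heterochromatic, leaned higher in number 4 in calls and medians, against the direction of the length trend. Their mean log2 CPM without offsets did not lean. It was 4.44 in CRISPR 4 against 4.35 to 4.57 in CRISPR 1 to 3, and 4.66 in wt 4 against 4.61 to 4.73 in wt 1 to 3. Its 88 tested genes have a median transcript of 3748 bases, a length at which genes were mostly lower, yet 15 were higher and 0 lower in the TMM fit, and 22 (25.0%) were higher and 0 lower with offsets. On the other arms 2.66% (X) to 4.73% (2L) of genes were higher with offsets, and 6.81% and 7.29% in the 2 longest deciles of all genes. The median chromosome 4 gene deviated after offsets by 0.33 in CRISPR 4 and 0.39 in wt 4, and by -0.26 to -0.05 in the 6 others, whose comparison sets hold number 4. The zinc transporter gene Zip102B (chromosome 4, 310930 to 314087) had 209 CPM in CRISPR 4 and 203 CPM in wt 4, against 127, 142 and 154 CPM in CRISPR 1 to 3 and 138, 135 and 122 CPM in wt 1 to 3. It rose in both fits (0.60, SE 0.09, adjusted p = 0.00896; with offsets 0.72, adjusted p = 0.0156). The kinase Dyrk3 had 222 and 256 CPM in CRISPR 4 and wt 4, against 149 to 176 CPM in numbers 1 to 3 (0.54, adjusted p = 0.0106; with offsets 0.80, adjusted p = 0.0156). The SOX factor Sox102F had 52.8 and 59.2 CPM in CRISPR 4 and wt 4, against 20.1 to 39.3 CPM in numbers 1 to 3 (1.06, adjusted p = 0.0206; with offsets 1.28, adjusted p = 0.0334). The receptor kinase Eph (0.35, adjusted p = 0.0244; with offsets 0.77, adjusted p = 0.0150) and its ligand Ephrin (0.45, adjusted p = 0.0206; with offsets 0.84, adjusted p = 0.0156) rose in both fits. The kinase Asator passed with offsets (0.86, adjusted p = 0.0154; TMM 0.30, adjusted p = 0.0589). These genes and the chromosome were chosen after their values were seen. The chromosome 4 median stayed above 0 under the other scalings and each library left out, with 12 genes higher under RLE and 30 under upper-quartile factors. In the TMM fit 5 were higher without wt 2, 6 without wt 3 and 0 without CRISPR 4 or without wt 4. With wt 2, wt 3 and CRISPR 3 all left out, 8 were higher and 4 lower. Against the other libraries marked not used alone, 0 were higher and 0 lower. Base composition was not measured here.

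**Figure D5:**
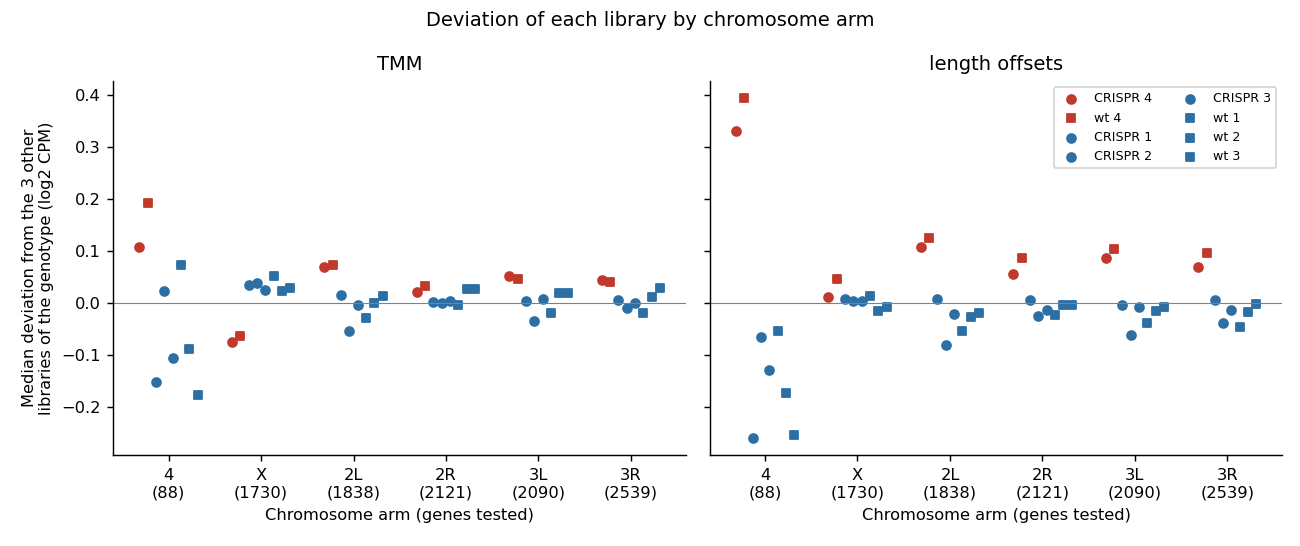
Median deviation of each library from the 3 others of its genotype (vertical axis, log2 CPM) over the tested genes of each chromosome arm (number in brackets), with TMM on the left and after length offsets on the right; red is number 4, blue numbers 1 to 3, circles CRISPR and squares wt. Chromosome 4 stands at 0.33 and 0.39 for CRISPR 4 and wt 4 after offsets, while the other arms lie between 0.01 and 0.12 for these 2 libraries.

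Marker sums of neighbouring larval tissue are given without a test. Salivary gland markers (12) summed to 58.9 CPM in CRISPR 4 and 110 CPM in wt 4, against 9.79 to 52.3 CPM in numbers 1 to 3, with 4 markers at 0 in each number 4 library and 2 to 4 in the others. The salivary list, with a median transcript of 952 bases, had 2 of 11 tested genes higher and 1 lower in the TMM fit. Of all genes of 701 to 1002 bases, 13.9% were higher and 1.05% lower. Eig71Ee, an ecdysone-induced gene of the prepupal gland, had 9.36 and 17.1 CPM in CRISPR 4 and wt 4, against 0.302 to 3.43 CPM in numbers 1 to 3 and rose in the TMM fit only (2.98, adjusted p = 0.0320; with offsets 2.92, adjusted p = 0.0570). Eig71Ea, called in both fits, rests on 1 read in CRISPR 4 and 47 in wt 4, with 3 reads in wt 1 and 0 in the other 5. The salivary transcription factor sage went the other way (3.47 and 3.33 CPM in CRISPR 4 and wt 4, against 4.57 to 10.5 CPM in numbers 1 to 3; -1.21, adjusted p = 0.0494; with offsets -1.27, adjusted p = 0.0652). Tracheal markers (6), drawn from a set that includes serp, summed to 1762 and 1698 CPM in CRISPR 4 and wt 4, against 2291 to 2744 CPM in numbers 1 to 3. Of all genes of 2864 to 3725 bases, 15.1% were lower in the TMM fit and 4.51% with offsets. The trachea list, with a median transcript of 3000 bases, had 3 of 11 tested genes lower in the TMM fit and 0 with offsets. Its median difference was -0.14 without and 0.14 with offsets. Markers of differentiated muscle (10) summed to 130 and 243 CPM in CRISPR 4 and wt 4, against 132 to 1252 CPM in numbers 1 to 3, a range that holds wt 4. Neurons (6 markers; 72.6 and 78.8 CPM in CRISPR 4 and wt 4, against 61.4 to 81.6 CPM in numbers 1 to 3) and glia (4; 35.5 and 46.0 CPM in CRISPR 4 and wt 4, against 27.3 to 48.9 CPM in numbers 1 to 3) overlapped. The part of carried-over tissue in the ecdysone and cuticle differences was not tested. With the 3 libraries richest in midgut RNA (wt 2, wt 3 and CRISPR 3) left out, 2041 genes were called (735 higher, 1306 lower).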

How the data were processed

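Each library has a table of raw counts of reads for every gene, as the authors deposited it. Per the submitters' processing notes, the tools were FastQC, Trimmomatic 0.36, STAR and DESeq2, with dm6 as the build; no counting program or strand setting is named there. The 5 special rows that name no gene (no feature 0.955% to 1.91% of reads, ambiguous 3.07% to 3.44%, not unique 2.22% to 4.40%) were left out. An Ensembl annotation of that assembly gave symbols (for 17253 IDs), transcript lengths and positions.

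The count model was that of edgeR 4.0.16 (R 4.3.3): TMM, filterByExpr (minimum count 10, minimum total 15), genotype plus number 4, two-sided quasi-likelihood test, Benjamini-Hochberg adjusted p under 0.05 over all genes. Every adjusted p is from edgeR unless DESeq2 1.42.0 or limma 3.58.1 is named. Differences are number 4 minus numbers 1 to 3. A 4-group model gave each genotype's difference and the interaction. Length offsets are a loess (span 0.5) of each library's deviation on log2 longest transcript; 211 tested genes had no length and no offset. The procedure was also run on simulated data, whose libraries varied independently with a fixed spread and a straight-line length trend. Such data lack the likeness between libraries seen here, so that run does not check the call counts. A count of 0 allows up to 0.0595 to 0.0946 CPM (3 counts, counting error only).

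The members and lists were chosen with earlier results of these data known. Named genes were called in both fits in the same direction, with average log2 CPM of at least 1 and each number 4 library outside the 3 others of its genotype (the 12 largest rises and 12 largest falls after offsets), plus up to 4 genes per list, those of smallest p, and any stage gene; the text gives a selection. Genes of chromosome 4, tanning genes outside that rule, hid, sd, kirre, lncRNA:roX1, Cyp4g1 and Prosbeta1 were chosen after their values were seen. Same-numbered libraries deviated together with r = 0.34 (number 1), 0.066 (2), 0.50 (3) and 0.58 (4), so the number is not shown to pair libraries. Figures were drawn with matplotlib 3.10.9. Exons of Hr39, ftz-f1, rig, Hr3, Hr4, lncRNA:let7C, Mmp2, Ddc, Tsp42Ei, zormin, Dscam1, twi, Vrp1, robo2, tio, mRpL43, Prosbeta1, Uhg1, RpL22, Cdk2, E2f1, Asator and Antp overlap other annotated genes, so their counts are uncertain.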

Additional observations from a re-analysis of the deposited data

Results flagged for a closer look

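In a group of 4 libraries, a library was singled out where its gap to the nearest other, divided by the range of the group, exceeded 0.83 (Dixon's 95% value); chance gives about 1 in 20, and 24 of 168 groups were singled out. All but 1 of them point to a number 4 library. On log2 CPM, wt 4 was low for lncRNA:CR44564 (0.972), Zasp52 (0.965), Non1 (0.924), CG9121 (0.91), CG6026 (0.906), Eip74EF (0.902), E2f1 (0.897), Dscam1 (0.89), kkv (0.881), CG14212 (0.88), dpy (0.846), ftz-f1 (0.842), ptc (0.841) and Eip75B (0.833). It was high for Cyp4g1 (0.934) and Dyrk3 (0.851). CRISPR 4 was low for E2f1 (0.911), salm (0.9), tio (0.869), kkv (0.84) and Dscam1 (0.838), and high for Eig71Ea (1), where it has a single read and the other CRISPR libraries none. The correlation with transcript length was low in wt 4 (0.965). The exception was Blimp-1, low in wt 1 (0.837). Most of these genes were named for their difference in number 4, so the flags are no independent evidence of it.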

How the results depend on the processing

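The main count of 1836 genes was 2941 with DESeq2, 708 with length offsets, 565 with offsets on mean transcript length and 770 with offsets fitted on abundant genes (added after seeing the data). It was 3559 against the libraries marked used alone, 485 against the other libraries marked not used (where no test per genotype is possible) and 1064 with wt 2 and wt 3 summed. RLE, upper-quartile, limma-voom and no filter gave 1946, 2737, 1942 and 1891. Leaving out each library in turn gave 2 (without CRISPR 4) to 2740 (without wt 1). For wt 4 alone (2 calls), RLE, upper-quartile and both kinds of length offset gave 1, limma-voom 14, DESeq2 887, the used libraries 1229 and the fit without wt 2, wt 3 and CRISPR 3 467, with 0 to 3 on leaving out any library but wt 4. For CRISPR 4 alone (0 calls), RLE gave 142, upper-quartile 110, no filter 214, limma-voom 118, DESeq2 1011, the used libraries 1659 and the fit without those 3 libraries 830, with 0 to 164 on leaving out any library but CRISPR 4. The genotype difference (0 calls) gave 2 with DESeq2, 2 against the used libraries and 4 without those 3, and 0 on leaving out any of CRISPR 1 to 3 or wt 1 to 3; it cannot be fitted without CRISPR 4 or wt 4. The cause of these shifts was not tested. The wt libraries marked used are wt 2 and wt 3, which were nearly alike. Counts against the used libraries therefore take part of their spread from a pair that hardly differs. The length correlation was -0.65 at average log2 CPM of at least 5. Differences that changed sign were those of EcR (length offsets 0.0203, offsets from abundant genes 0.10, replicate block with offsets 0.0478), Eip75B (0.37, 0.44 and 0.37, and 0.27 on mean length) and Antp (0.0608, 0.11 and 0.0731, and 0.0796 on mean length); none of them was called in the main fit. With the replicate number as a block 2543 genes were called, and 1331 with block and length offsets; wt 2 correlated best with CRISPR 3 (r = 0.50), not with its own number. Of 59 named genes called, 42 were kept with length offsets, 43 without wt 2, 44 without wt 3, 1 without CRISPR 4, and 7 of 58 without wt 4. The planned correction for GC content was not run. Genes under about 0.1 CPM rest on a few reads.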

Other observations

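Some values lie outside the comparisons above. Genes within 2 Mb of the centromeric end of the large arms, a window chosen after the chromosome 4 values were seen, had 16 of 131 higher (12.2%) and 1 lower with length offsets, against 5.02% higher from 2 to 4 Mb and 3.61% beyond 8 Mb. The dosage compensation RNA lncRNA:roX1 had 1553 CPM in CRISPR 4 and 1334 CPM in wt 4, against 406, 100.3 and 505 CPM in CRISPR 1 to 3 and 405, 997 and 1008 CPM in wt 1 to 3, and did not pass (1.56, adjusted p = 0.0996). Cyp4g1, the oenocyte enzyme of cuticular hydrocarbons, had 0.624 CPM in CRISPR 4 and 46.1 CPM in wt 4, against 0.0862 to 0.774 CPM in numbers 1 to 3. It was called (4.59, adjusted p = 0.0273) through wt 4, and without that library it was not (0.85, adjusted p = 0.660). Glutathione S-transferases had 5 of 27 higher and 0 lower in the TMM fit and 0 of either with length offsets. Their median transcript has 881 bases. Of all genes of 701 to 1002 bases, 13.9% were higher and 1.05% lower with TMM, and 2.40% and 0.671% with offsets.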
